A study of Mus musculus with 1279 samples.

Results

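The genes described here are 10 genes of glucocorticoid activation and response, Hsd11b1, Nr3c1, Nr3c2, Fkbp5, Tsc22d3, Per1, Zbtb16, Mt1, Mt2 and Glul. They were chosen by name, as rows of the heart count table, and all 10 were found among its 46517 genes and had counts. The table held Smart-seq2 read counts for 1279 single cells from the hearts of adult male mice aged 10 to 20 weeks, each labelled with a mouse strain and with 1 of 8 clusters assigned by the authors. The 581 C57BL6 cells carried no reporter and were sorted with antibodies against PDGF receptors. The strains PdgfrbGFP (364 cells), Cspg4dsRED and Acta2GFP (the remaining cells) carried fluorescent transgenes driven by regulatory sequences of Pdgfrb, Cspg4 and Acta2, all on a C57BL6 background, and CD31-positive cells were left out of the sorts. No mouse had been given a hormone or another treatment according to the labels, so every value is a level in untreated hearts after tissue dissociation. Clusters 1 to 5 (926 cells) are the fibroblasts, and clusters 6 to 8 (353 cells) hold the mural cells of vessel walls, which are pericytes and smooth muscle cells.

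Glucocorticoids such as corticosterone act inside the cell, and how much active hormone a cell sees depends on its enzymes as well as on the blood. Hsd11b1 encodes 11β-hydroxysteroid dehydrogenase type 1, an enzyme of the endoplasmic reticulum that turns inert 11-keto steroids back into active hormone with NADPH supplied by H6pd, while Hsd11b2 encodes the enzyme that inactivates the hormone. The hormone binds the glucocorticoid receptor (Nr3c1) and, with high affinity, the mineralocorticoid receptor (Nr3c2), and the bound receptors regulate transcription in the nucleus. Fkbp5, Tsc22d3 (also called GILZ), Per1 and Zbtb16 are classical targets induced by the glucocorticoid receptor. The metallothioneins Mt1 and Mt2 and glutamine synthetase (Glul) also respond to glucocorticoids, but metals and cell stress act on the metallothioneins too. In the heart, both receptors are known from muscle cells and from stromal and vascular cells.

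The strain served as the replicate, with the reads of its cells added up on each side, since the labels name no animal. A cell had 46268 to 1302397 counts (median 274504), and the median per cluster was lowest in cluster 8, at 167874. Summed over 5 fibroblast markers (Pdgfra, Col1a1, Dcn, Lum, Tcf21), the level was 9073 to 13224 CPM (counts scaled to the library total) in the strain sums of clusters 1 to 5, 122.6 to 646 CPM in cluster 7 and 513 to 2645 CPM in cluster 8. It reached 1797 to 9822 CPM in cluster 6, so cluster 6 also carried fibroblast markers. Pericyte markers were highest in cluster 8 (4057 to 15046 CPM) and smooth muscle markers in clusters 6 and 7 (9946 to 15717 CPM). The clusters were made by the authors from the same counts, so the tests compare groups that these values helped to define.

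Promoter sequence is shown for Hsd11b1 and Glul, the genes that passed the test between fibroblasts and mural cells, and for the neighbouring genes Mt1 and Mt2. Each is the 250 bases before the RefSeq start (GRCm38.p6), written 5′ to 3′ on the strand of the gene. Capitals mark the core of a metal response element, the letters TGCACNC or TGCGCNC on either strand, which occurs in 21.4% of 32851 promoter windows of that length. The windows lie at chr1:193242361-193242610 (minus strand, Hsd11b1), chr1:153899679-153899928 (plus strand, Glul), chr8:94178839-94179088 (plus strand, Mt1) and chr8:94172368-94172617 (plus strand, Mt2).
Hsd11b1: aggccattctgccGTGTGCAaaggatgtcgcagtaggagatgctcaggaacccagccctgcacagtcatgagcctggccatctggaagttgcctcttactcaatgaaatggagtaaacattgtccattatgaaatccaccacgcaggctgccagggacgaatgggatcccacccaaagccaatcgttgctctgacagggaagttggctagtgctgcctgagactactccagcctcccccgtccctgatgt
Glul: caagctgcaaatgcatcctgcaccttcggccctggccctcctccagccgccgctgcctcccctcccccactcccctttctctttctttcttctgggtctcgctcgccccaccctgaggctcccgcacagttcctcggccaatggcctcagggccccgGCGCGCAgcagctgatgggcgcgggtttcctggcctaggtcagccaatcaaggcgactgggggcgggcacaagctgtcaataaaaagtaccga
Mt1: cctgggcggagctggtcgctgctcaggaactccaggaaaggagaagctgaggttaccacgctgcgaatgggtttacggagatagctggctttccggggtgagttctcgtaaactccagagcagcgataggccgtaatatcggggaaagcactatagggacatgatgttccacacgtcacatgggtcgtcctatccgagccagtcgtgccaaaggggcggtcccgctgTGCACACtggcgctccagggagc
Mt2: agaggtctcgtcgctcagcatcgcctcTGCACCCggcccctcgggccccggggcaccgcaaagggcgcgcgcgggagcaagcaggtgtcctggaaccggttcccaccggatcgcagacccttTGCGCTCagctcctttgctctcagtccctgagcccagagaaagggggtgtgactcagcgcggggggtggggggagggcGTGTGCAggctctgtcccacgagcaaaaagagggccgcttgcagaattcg
Mt2 held 3 such cores and Mt1, Glul and Hsd11b1 held 1 each. The consensus element of the glucocorticoid receptor, the letters AGAACA and then TGTTCT after a gap of 3 bases, occurs in 3 of the 32851 windows and in none of these 4. A single arm of it, AGAACA on either strand, occurs in 16.1% of windows and likewise in none of the 4. This arm was found before a start of Tsc22d3. The E-box CACGTG, a site of clock factors, occurs in 6.02% of windows. It was found before a start of Per1 and before Fkbp5. These matches are descriptions of the letters only.

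Summed over the clusters of each side, Hsd11b1 was higher in fibroblasts than in mural cells. In fibroblasts the summed level was 396 CPM in Acta2GFP, 601 CPM in C57BL6, 457 CPM in Cspg4dsRED and 766 CPM in PdgfrbGFP. In mural cells it was 147.96 CPM in Acta2GFP, 261.1 CPM in C57BL6, 39.2 CPM in Cspg4dsRED and 86.8 CPM in PdgfrbGFP. Every fibroblast sum lay above every mural sum, but this did not hold cluster by cluster. The mean over strains in mural cluster 8, 257.7 CPM, exceeded those of fibroblast clusters 1 (40.9 CPM) and 4 (160 CPM). In PdgfrbGFP, cluster 8 (95.7 CPM) lay below cluster 4 (114.98 CPM). Cluster 8 held most mural cells of C57BL6 and PdgfrbGFP and a minority of those of Acta2GFP and Cspg4dsRED, so the mural sums mix clusters unequally. The log2 fold change of fibroblasts over mural cells was 2.07 (SE 0.53, n = 4 strains, higher in 4 of 4) with an adjusted p of 0.0469 in the edgeR quasi-likelihood test. That call lies close to the threshold: the adjusted p ran from 0.0055 to 0.259 over 12 alternatives, was 0.0499 with the strain as replicate block, and passed in none of the 4 fits that left out 1 strain. Hsd11b1 (ENSMUSG00000016194) lies on chromosome 1 from 193221634 to 193264075 on the minus strand of GRCm38, shares no exon base with another gene and has no 50-base stretch that recurs in another transcript.

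**Figure D1:**
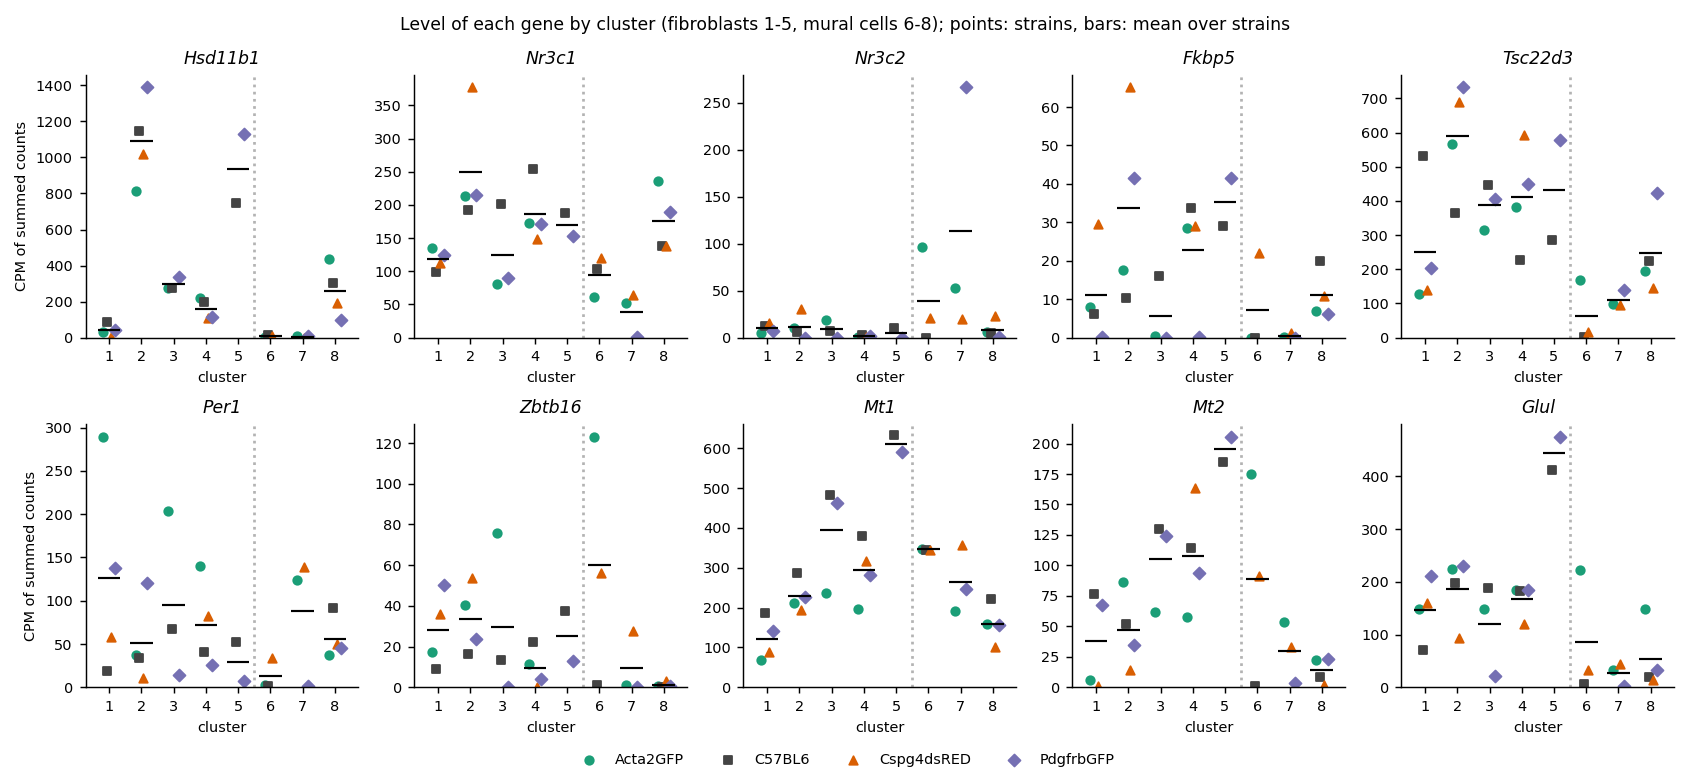
Level of each of the 10 genes (vertical axis, CPM of summed counts, from 0) in each cluster (horizontal axis, dotted line between fibroblasts and mural cells). Points are strains with 3 or more cells in the cluster and bars the mean over strains; Hsd11b1 is high in clusters 2 and 5, and the means of Mt1, Mt2 and Glul over strains are highest in cluster 5.

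Among the fibroblast clusters, Hsd11b1 was high in clusters 2 and 5, intermediate in clusters 3 and 4 and low in cluster 1. The mean over strains was highest in cluster 2, at 1094 ± 240.8 CPM (SD, n = 4). It was 938 ± 267.5 CPM in cluster 5 (n = 2), 295 ± 33.9 CPM in cluster 3 (n = 3), 160 ± 56.4 CPM in cluster 4 (n = 4) and 40.9 ± 33.8 CPM in cluster 1 (n = 4). The 6 strain sums of clusters 2 and 5 spanned 749 to 1391 CPM, and the 11 sums of clusters 1, 3 and 4 spanned 2.47 to 334 CPM, with no overlap. Clusters 2 and 5, next to each other in this order, overlapped. Among mural cells, cluster 8 had a mean of 257.7 ± 146.9 CPM (n = 4), cluster 6 of 8.51 ± 3.79 CPM (n = 3) and cluster 7 of 5.00 ± 3.83 CPM (n = 3). Per transcript length, the mean in cluster 2 was 720 TPM (reads scaled by transcript length and library total), against 92.5 TPM for Nr3c1 and 104.8 TPM for H6pd in the same cluster.

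Cluster 1 was tested against clusters 2 to 5 to find what sets it apart from the other fibroblasts, and Hsd11b1 was the 1 gene of the 10 that passed the test there. Its level in cluster 1 was 33.8 CPM in Acta2GFP, 84.5 CPM in C57BL6, 2.47 CPM in Cspg4dsRED (3 cells) and 42.7 CPM in PdgfrbGFP. In clusters 2 to 5 of the same strains it was 497, 620, 495 and 857 CPM. The lowest of these values lay far above the highest of cluster 1. The log2 fold change was -3.86 (SE 0.71, n = 4 strains, lower in 4 of 4, adjusted p = 0.0284, edgeR). Over 11 alternatives the adjusted p reached 0.192, and the call was lost with limma-voom (0.0591) and without Acta2GFP (0.165), C57BL6 (0.0987) or PdgfrbGFP (0.192). Of 3 endothelial markers tested in this comparison, 1 was also called lower in cluster 1 and 2 had a positive log2 change (median 0.54). Their part in the Hsd11b1 difference was not tested.

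Cells of the same cluster differed widely in Hsd11b1. At a limit of 100 CPM, chosen after the values were seen, 86.8% of the cells of cluster 2 lay above it (81.5 to 100% in the strains), 64.04% of cluster 5 (62.9 to 64.7% in 2 strains), 36.6% of cluster 3 (28.6 to 42.9%), 30.04% of cluster 4 (20.8 to 33.1%) and 11.4% of cluster 1 (0 to 21.1%). In mural cells the share was 15.3% in cluster 8, from 6.72% in PdgfrbGFP to 33.3% in Acta2GFP, and 2.56% in cluster 6 (1 of 39 cells) and 0 cells in cluster 7, where a count of 0 allows up to 2.54%. The median cell stood at 1113 CPM in cluster 2 and 626 CPM in cluster 5, but at 18.9 CPM in cluster 3 and 12.98 CPM in cluster 4. Low counts were widespread, and 37.3% of the cells of cluster 7 had a count of Hsd11b1 at a mean level of 5.00 CPM over strains (median of 2 reads in those cells), and the share was 84.8% in Acta2GFP, 66.7% in PdgfrbGFP and 12% in Cspg4dsRED, while the single C57BL6 cell also had a count. A share of cells with any count at or below that of cluster 7 was not read as expression. Whether such counts are background was not tested, and the share in cluster 7 differed between strains. The limit for a count of 0 takes the cells as independent, which cells of 1 strain and plate are not, so it covers counting error only and not the spread between strains or plates.

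**Figure D2:**
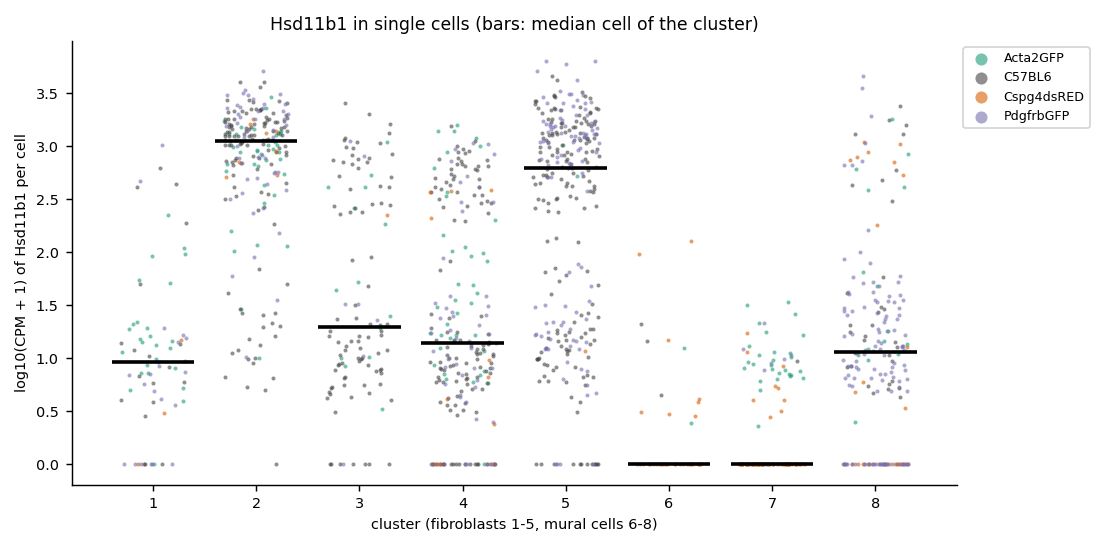
Hsd11b1 in each of the 1279 cells (vertical axis, log10 of CPM + 1; horizontal axis, cluster; colours, strains; bars, median cell). Most cells of cluster 2 lie near 3 on the log10 scale, clusters 3, 4, 5 and 8 hold a high and a low group of cells, and no cell of cluster 7 reaches the limit of 100 CPM.

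Within mural cells, Hsd11b1 separated cluster 8 from cluster 7 without passing the test. It stood at 437 CPM in Acta2GFP, 194.2 CPM in Cspg4dsRED and 95.7 CPM in PdgfrbGFP in cluster 8, against 7.95, 0.670 and 6.38 CPM in cluster 7. All 3 values of cluster 8 were above all of cluster 7. The log2 difference was 5.55 (SE 1.22, higher in 3 of 3 strains, unadjusted p = 0.000618, adjusted p = 0.129, edgeR), and the adjusted p was 0.00160 with DESeq2 and 0.00286 without the filter on low counts. Summed fibroblast markers were also higher in cluster 8 than in cluster 7, and across the cells of cluster 8 the Pearson correlation of Hsd11b1 with the summed fibroblast markers was 0.26, against 0.62 in cluster 6 and 0.61 in cluster 7. These cells share plates and differ in depth, and the part of fibroblast RNA in the mural levels was not tested. None of the 9 genes that could be tested between cluster 8 and cluster 7 passed, beside 0.194% of all genes (0.0843% higher and 0.11% lower). Zbtb16 was too low to be tested there.

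The partners of Hsd11b1 in hormone metabolism were found mainly in its cofactor supply. H6pd was at 104.8 TPM in cluster 2, 64.6 TPM in cluster 4, 40.6 TPM in cluster 1 and 10.1 to 26.98 TPM in the other clusters. Its log2 fold change in fibroblasts over mural cells was 2.40 (SE 0.80, higher in 4 of 4 strains, adjusted p = 0.134, edgeR). Hsd11b2, the inactivating enzyme, had at most 1.66 TPM as a mean of any cluster. Of 13 genes of corticosteroid metabolism, 3 (H6pd, Srd5a1, Abcb1b) were high enough to be tested between fibroblasts and mural cells, none passed, beside 5.93% of all genes, and their median log2 change was 1.67 beside -0.02 over all genes. The adrenal synthesis genes Cyp11b1 and Cyp11b2 had 6 and 0 reads.

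Of the receptors, Nr3c1 was measured in every cluster at moderate levels and Nr3c2 was sparse. Nr3c1 stood in fibroblasts at 172.4 CPM in Acta2GFP, 206.01 CPM in C57BL6, 225.2 CPM in Cspg4dsRED and 166.15 CPM in PdgfrbGFP. In mural cells the corresponding values were 112.6, 130, 95.1 and 170 CPM. The ranges overlapped, since mural cells of PdgfrbGFP lay above their own fibroblasts. The log2 fold change was 0.56 (SE 0.29, adjusted p = 0.374, edgeR). By cluster, Nr3c1 was highest in cluster 2 (250 ± 85.7 CPM, n = 4) and lowest in cluster 7 (39.1 ± 33.2 CPM, n = 3), a span of far less than that of Hsd11b1. All 4 values of cluster 1 (98.7 to 135.8 CPM) were below all 4 values of clusters 2 to 5, with a log2 difference of -0.75 (SE 0.31, p = 0.0336, adjusted p = 0.467). Across the 10 genes, 3 had such separate ranges between cluster 1 and clusters 2 to 5, beside 9.36% of all genes tested.

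Nr3c2 had a read in 8.05% of cells, and 10 cells carried 51.6% of its reads. It was nominally the only 1 of the 10 with a lower level in fibroblasts (7.09 ± 4.71 CPM) than in mural cells (23.3 ± 15.3 CPM, n = 4 strains), with a log2 change of -1.78 (SE 0.88, adjusted p = 0.359, edgeR). C57BL6 went the other way. All 6 heart muscle markers (Myh6, Tnnt2, Tnni3, Actc1, Nppa, Ttn) also had a negative log2 change, with a median of -1.61, and 1 passed. Of these, Actc1 was also reported by the authors as enriched in a small group of smooth muscle cells from the heart. The part of heart muscle RNA in the Nr3c2 levels was not tested. The highest level, 266.9 CPM in cluster 7 of PdgfrbGFP, came from 9 cells, of which 1 held 91.9% of the reads. In TPM, which allows levels to be compared between genes, Nr3c1 exceeded Nr3c2 in every cluster mean but that of cluster 7, where Nr3c2 was at 44.4 TPM and Nr3c1 at 14.2 TPM. That exception rests on PdgfrbGFP, at 101.8 TPM of Nr3c2 and 0.473 TPM of Nr3c1. Without this strain, left out after its values were seen, the means were 15.7 TPM for Nr3c2 and 21.05 TPM for Nr3c1, and Nr3c2 was the higher in Acta2GFP (22.9 against 18.9 TPM) and the lower in Cspg4dsRED (8.48 against 23.2 TPM). In cluster 7, 53.4% of the cells had a count of Nr3c1 and 18.6% had one of Nr3c2.

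Of the classical targets of the glucocorticoid receptor, Fkbp5 and Tsc22d3 were higher in fibroblasts of 4 of 4 strains, Zbtb16 of 3 and Per1 of 2, and none of these genes passed the test. Tsc22d3, which encodes an anti-inflammatory leucine zipper protein, was the most abundant of them. Its fibroblast level was 377 CPM in Acta2GFP, 321 CPM in C57BL6, 596 CPM in Cspg4dsRED and 529 CPM in PdgfrbGFP, and its mural level was 136.4, 191.3, 81.1 and 394 CPM. It was higher in fibroblasts of every strain, although the mural value of PdgfrbGFP exceeded the fibroblast values of Acta2GFP and C57BL6. The log2 change was 1.13 (SE 0.48, p = 0.0410, adjusted p = 0.264, edgeR), and the adjusted p was 0.0439 with means of per-cell CPM. Tsc22d3 was lowest in cluster 6 (62.8 ± 92.8 CPM, n = 3), where 1 cell gave 98.1% of the reads of Acta2GFP, and highest in cluster 2 (589 ± 164.98 CPM, n = 4).

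Fkbp5, a co-chaperone that lowers the receptor's hormone binding and closes a feedback loop, was found in 13.8% of cells. It stood at 16.8, 23.1, 50.4 and 24.5 CPM in fibroblasts of Acta2GFP, C57BL6, Cspg4dsRED and PdgfrbGFP, and at 2.34, 17.03, 9.41 and 5.59 CPM in mural cells. The direction was the same in 4 of 4 strains, and the log2 change was 1.73 (SE 0.75, p = 0.0431, adjusted p = 0.271, edgeR). Per1, a clock gene with glucocorticoid elements, did not separate the sides (79.9 ± 52.3 CPM against 74.1 ± 22.6 CPM, log2 change 0.09, SE 0.43, adjusted p = 0.957), and its sign turned under 5 of 12 alternatives. Zbtb16, a zinc finger repressor, had 44.97% of its reads in 10 cells, and its log2 change of 1.09 had an SE of 1.21. For sparse genes such as Fkbp5, Zbtb16 and Nr3c2, single cells set the strain values: in cluster 2 of PdgfrbGFP, 1 of 49 cells gave 70.4% of the Fkbp5 reads, and in cluster 2 of Acta2GFP, 1 of 38 cells gave 96.9% of the Zbtb16 reads.

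**Figure D3:**
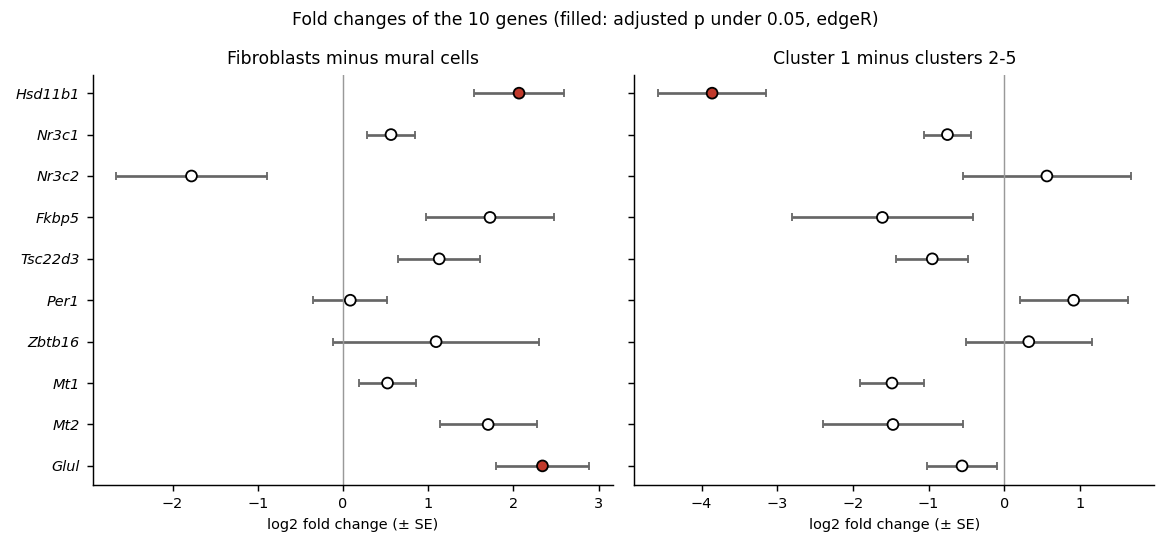
Log2 fold change with its SE (horizontal axis) for the 10 genes (vertical axis) in fibroblasts minus mural cells and in cluster 1 minus clusters 2 to 5, 4 strains a side, edgeR. Filled points have an adjusted p under 0.05: Hsd11b1 (2.07) and Glul (2.34) on the left, Hsd11b1 (-3.86) on the right.

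Glul, which makes glutamine from glutamate and ammonia, had the largest change of the 10 between fibroblasts and mural cells. Its level in fibroblasts was 186.45 CPM in Acta2GFP, 252.3 CPM in C57BL6, 102.5 CPM in Cspg4dsRED and 302 CPM in PdgfrbGFP. In mural cells it was 88.03, 17.3, 34.6 and 29.2 CPM. The ranges did not overlap. The log2 fold change was 2.34 (SE 0.55, higher in 4 of 4 strains, adjusted p = 0.0319, edgeR). The adjusted p was 0.0685 with the strain as replicate block, 0.141 without C57BL6, 0.0665 without Cspg4dsRED and 0.185 without PdgfrbGFP. Glul shares exon bases with Teddm2, on the other strand, and with Mir8114, and 12.6% of its 50-base stretches recur in other transcripts, so part of its reads could be counted elsewhere. Endothelial markers were on the same side in this comparison, in which Hsd11b1 also passed, as the 4 tested of 5 had a positive log2 change (median 1.57). Of these Tek passed (130.7 ± 47.6 CPM against 4.08 ± 5.16 CPM), Pecam1, Kdr and Emcn did not, and Cdh5 was too low to test (2.50 CPM in fibroblasts). The summed level of the 5 was 4.94 to 302.8 CPM in the strain sums of clusters 1 to 5 and 4.34 to 273.1 CPM in those of clusters 6 to 8, and the part of endothelial RNA in the Glul and Hsd11b1 levels was not tested.

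With Hsd11b1 and Glul, 2 of the 10 genes passed the test between fibroblasts and mural cells, both higher in fibroblasts, beside 5.93% of the 15117 genes tested (3.47% higher and 2.45% lower). The median log2 change of the 10 was 1.11, and it was -0.02 over all genes. Of the 10 genes, 3 (Hsd11b1, Mt2, Glul) had ranges that did not overlap, beside 14.7% of all genes. Between cluster 1 and clusters 2 to 5, 1 of 10 passed, beside 1.33% of all genes, and the median log2 change was -0.85, beside -0.03. Over all genes, the median in cluster 1 was -0.47 with the strain as replicate block and -0.49 with limma-voom. Between fibroblasts and mural cells it was 0.20 and 0.25 with these settings. The medians of the 10 are given for the main setting only.

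The metallothioneins bind zinc and copper, and the mean over strains of both genes was highest in cluster 5. Mt1 and Mt2 lie next to each other on chromosome 8, Mt2 from 94172664 to 94173568 and Mt1 from 94179082 to 94180327, and share no 50-base stretch with each other. Of the 50-base stretches of Mt2, 45.8% overlap the antisense gene Gm45774, which has no row in the count table, so reads of that gene could be counted as Mt2. Mt1 had a read in 1201 cells and Mt2 in 728, of which 709 had both. Fibroblast levels of Mt2 were 59.5 CPM in Acta2GFP, 121.7 CPM in C57BL6, 110 CPM in Cspg4dsRED and 121.4 CPM in PdgfrbGFP, and mural levels were 54.5, 7.30, 44.96 and 20.99 CPM. Each fibroblast value was above each mural value, by little in Acta2GFP. The log2 change was 1.70 (SE 0.57, adjusted p = 0.134, edgeR), and the adjusted p was 0.0426 with DESeq2 and 0.0230 without clusters 1 and 6, an alternative added after the data were seen. Mt1 had no common direction, since it was higher in fibroblasts of C57BL6 and PdgfrbGFP and lower in those of Acta2GFP and Cspg4dsRED (log2 change 0.52, SE 0.33, adjusted p = 0.515).

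Within fibroblasts, the strain sums of cluster 5 stood above those of the other clusters in Mt1, Mt2 and Glul, but for Mt1 and Mt2 this did not hold on 1 of the 2 larger plates of C57BL6. Mt1 reached 632 CPM in C57BL6 and 591 CPM in PdgfrbGFP in cluster 5, against 368 and 270 CPM in clusters 2 to 4 of these strains. Mt2 was at 185.1 and 205.6 CPM in cluster 5, and Glul at 412 and 475 CPM against 189.3 and 193.6 CPM. Both values of each gene were above every sum of clusters 1 to 4, whose highest values were 483 CPM for Mt1, 163.9 CPM for Mt2 and 230 CPM for Glul. On 1 of these plates, cluster 5 was at 804 CPM of Mt1 and 253.1 CPM of Mt2, above clusters 1 to 4 of that plate. On the other, Mt1 was at 414 CPM, against 424 CPM for cluster 3. Mt2 was at 99.1 CPM there, below cluster 3 (110.1 CPM) and cluster 4 (130.9 CPM). Glul was highest in cluster 5 on both plates, at 257.4 and 607 CPM. With 2 strains, log2 differences were 1.03 (SE 0.22), 1.33 (SE 0.27) and 1.30 (SE 0.24), with unadjusted p of 0.00429, 0.00332 and 0.00211 in the edgeR test and adjusted p of 1.00 for all 3. With DESeq2 the adjusted p was 0.00602, 0.00602 and 0.00125. None of the 16214 genes tested passed in edgeR (0.0%), 630 genes (3.89%) had an unadjusted p under 0.05, and DESeq2 called 0.765%.

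The stress genes that tissue dissociation induces moved with the metallothioneins among the fibroblast sums. The summed level of 13 such genes (Fos, Jun, Egr1, heat shock genes and others) was 21031 and 22202 CPM in the 2 strains of cluster 5, the highest of any cluster, 12056 to 20535 CPM for cluster 3 and 4126 to 13131 CPM for cluster 1. Over the 17 sums of fibroblast clusters, its Pearson correlation was 0.87 with Mt1, 0.74 with Mt2 and 0.24 with Glul, as log2(CPM + 1). Over the 10 mural sums it was 0.65 with Mt1, -0.21 with Mt2 and -0.35 with Glul, and with Hsd11b1 it was 0.57 over the fibroblast sums and -0.63 over the mural sums. With Fkbp5 it was -0.75 over the mural sums. The points share strains and plates. Over all 27 sums the correlation was 0.72 with Mt1, and with the other 9 genes it lay between -0.26 (Nr3c2) and 0.40 (Mt2). The part of dissociation in the metallothionein levels was not tested.

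**Figure D4:**
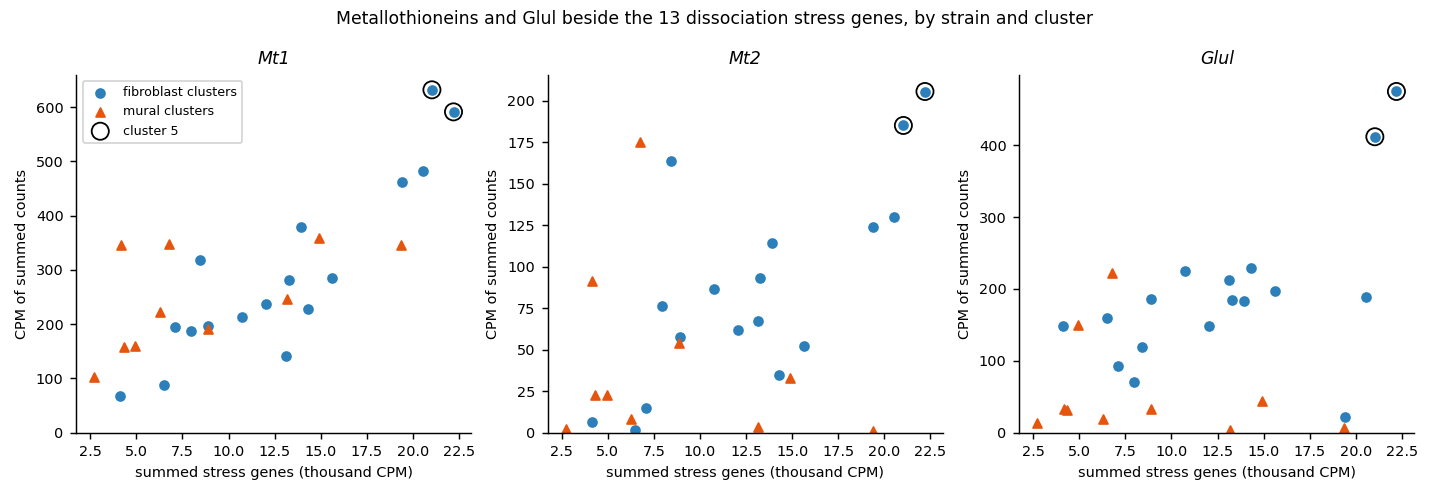
CPM of Mt1, Mt2 and Glul (vertical axes, from 0) against the summed level of 13 dissociation stress genes (horizontal axes, scaled as labelled) in 27 sums by strain and cluster (circles, fibroblast clusters; triangles, mural clusters; rings, cluster 5). Mt1 climbs with the stress genes among fibroblast clusters (r = 0.87), and the ringed sums of cluster 5 are at the top of all 3 panels.

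In cluster 1 the metallothioneins stood low. Mt1 was at 67.9 CPM in Acta2GFP, 186.9 CPM in C57BL6, 87.6 CPM in Cspg4dsRED and 140 CPM in PdgfrbGFP, against 224.1, 451, 285.96 and 407 CPM in clusters 2 to 5. Each value of cluster 1 was below each of the others. The log2 difference was -1.48 (SE 0.42, p = 0.00425, adjusted p = 0.141, edgeR), and the adjusted p was 0.0477 with the strain as replicate block and 0.0364 with DESeq2. Mt2 was lower in 4 of 4 strains, at 1.23 to 76.4 CPM against 74.4 to 128.1 CPM, with a log2 difference of -1.47 (SE 0.92, adjusted p = 0.810).

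The clusters 2, 3 and 4 were each compared with the others of clusters 2 to 5, and Hsd11b1 gave the firmest differences. In cluster 4 it was at 217.6 CPM in Acta2GFP, 198.8 CPM in C57BL6, 108.1 CPM in Cspg4dsRED and 114.98 CPM in PdgfrbGFP, against 687, 786, 865 and 1179 CPM in the others. The ranges were far apart. The log2 difference of -2.48 (SE 0.30, p = 4.75e-06) had an adjusted p of 0.0670 in edgeR, 0.106 with the strain as replicate block, 0.0194 with limma-voom, 0.0284 without the filter and 0.00291 with plates as the unit. In cluster 2 Hsd11b1 was higher in 4 of 4 strains (log2 difference 1.56, SE 0.47, p = 0.00666, adjusted p = 0.612), and in cluster 3 it was lower in 3 of 3 (-1.10, SE 0.34, p = 0.00852, adjusted p = 0.402). Cluster 2 also had an unadjusted p under 0.05 for Nr3c1 (0.62, SE 0.28), Mt1 (-0.73, SE 0.28) and Mt2 (-1.56, SE 0.53). In these 3 comparisons no gene of the 10 and no gene of all tested passed in edgeR (0.0% each); at an unadjusted p under 0.05, 4 of 10 lay in cluster 2, 1 in cluster 3 and 1 in cluster 4, beside 4.62%, 6.05% and 4.75% of all genes. With DESeq2, 0, 0 and 1 of the 10 passed, beside 1.22%, 2.61% and 1.30% of all genes.

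Cluster 6 against clusters 7 and 8 gave no call among the 10, beside 0.033% of all genes. Hsd11b1 was lower in cluster 6 in 3 of 3 strains (log2 difference -4.27, SE 1.29, p = 0.00586, adjusted p = 0.453), and it passed in DESeq2 (adjusted p = 0.0304). Cluster 6 had 3 cells in Acta2GFP, 3 in C57BL6 and 33 in Cspg4dsRED. Mt1 was nearly equal in these sums, at 348, 346 and 346 CPM, and above the 3 values of clusters 7 and 8 (180, 215.7 and 288.4 CPM), with a log2 difference of 0.71 (SE 0.63, adjusted p = 0.994).

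Counts of genes at a weaker limit are given beside those of all genes. Between fibroblasts and mural cells, 5 of the 10 kept 1 direction in every strain, beside 29.6% of all genes tested, and in cluster 1, 5 of 10 did, beside 22.8%, with 3 of 10 at an unadjusted p under 0.05, beside 8.87%. Cluster 6 had 1 of 10 at an unadjusted p under 0.05 (5.74% of all genes), 3 with ranges apart (17.7%) and 4 with 1 direction (35.6%). Cluster 8 against cluster 7 had 2 of 9 (6.88%), 5 with ranges apart (15%) and 5 with 1 direction (31.6%). Ranges lay apart for 1 of 10 genes in cluster 2 (4.12%), 3 in cluster 3 (16.2%), 1 in cluster 4 (3.98%) and 5 in cluster 5 (32.2%). The direction was shared by all strains for 3 genes in cluster 2 (18.1%), 5 in cluster 3 (33.4%), 3 in cluster 4 (16.9%) and 7 in cluster 5 (54.2%), which had 2 strains.

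The further genes of the pathway came from lists chosen with earlier results of these data known. Of 24 further glucocorticoid targets, 23 were tested between fibroblasts and mural cells, 1 rose and 1 fell in fibroblasts, beside 3.47% higher and 2.45% lower of all genes, and the median log2 change was 0.61, beside -0.02. Sgk1, a kinase of ion transport, rose (1.65, SE 0.42, adjusted p = 0.0467, edgeR; 127.8 ± 43.2 CPM against 40.7 ± 15.7 CPM). Errfi1, an inhibitor of EGF receptor signalling, fell (-1.98, SE 0.35, adjusted p = 0.00953; 204.7 ± 53.9 CPM against 813 ± 314 CPM), and it was lower again in cluster 1 than in clusters 2 to 5 (-3.26, SE 0.65, adjusted p = 0.0388). It was the 1 gene of the 22 tested in cluster 1 that passed, beside 1.33% of all genes. Sgk1 passed in 3 of 12 alternatives, with an adjusted p of up to 0.189, and in none of the fits that left out 1 strain. Errfi1 passed in 11 of 12 and, in cluster 1, in 7 of 11. Widely used targets such as Dusp1 (0.62, SE 0.38, adjusted p = 0.491) and Klf9 (-0.29, SE 0.30, adjusted p = 0.730) did not pass between fibroblasts and mural cells.

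None of 15 chaperones and coregulators of the receptor, among them Hsp90aa1, Fkbp4 and Ncoa1, passed between fibroblasts and mural cells, beside 5.93% of all genes, or in cluster 1, beside 1.33%. Their median log2 change was -0.01 for fibroblasts over mural cells and -0.07 for cluster 1. Among 15 further clock genes, Bhlhe40, a repressor of clock genes, rose in fibroblasts (1.89, SE 0.41, adjusted p = 0.0229, edgeR), the median was 0.04, and none of 14 passed in cluster 1. Of 9 glutamine and glutamate genes, the glutamate transporter Slc1a3 rose in fibroblasts (6.54, SE 0.86, adjusted p = 0.00187; 36.9 ± 17.3 CPM against 0.387 ± 0.208 CPM). Of 4 markers of Schwann cells, a glial cell type, 2 were tested and only Cdh19 passed (5.73, 42.9 ± 24.4 CPM against 0.779 ± 0.822 CPM). The median log2 change of the 2 was 2.89, and the markers not tested were too low. The part of Schwann cell RNA in the Slc1a3 level was not tested. Of 8 genes of this list tested in cluster 1, the glutamine transporter Slc1a5 fell, beside 1.33% of all genes called (-2.93, SE 0.36, adjusted p = 0.00293; 79.2 ± 27.2 CPM against 608 ± 156.3 CPM). No gene of the metal response list passed, with 6 tested between fibroblasts and mural cells and 4 in cluster 1. Of the 13 dissociation stress genes, Jun rose in fibroblasts (1.48, SE 0.33, adjusted p = 0.0253), 12 of 13 had a positive log2 change, beside 7396 of the 15117 genes tested, and the median was 0.97, while the median was -0.71 in cluster 1, where none passed. The 1 gene called of each of the clock, glutamine and stress lists stands beside 5.93% of all genes called between fibroblasts and mural cells. With the strain as replicate block, the adjusted p was 0.0534 for Bhlhe40 and 0.0613 for Jun, and each passed in 7 of 12 alternatives, for Jun in none of those that left out 1 strain.

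**Figure D5:**
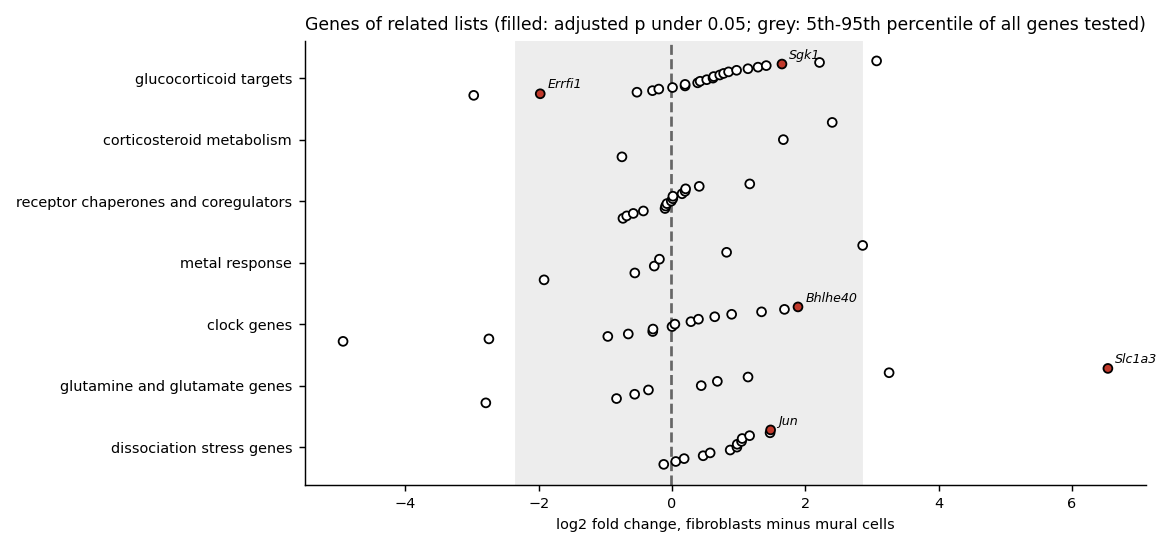
Log2 fold change of fibroblasts over mural cells (horizontal axis) for each tested gene of 7 related lists (vertical axis; points within a list are ordered by value). Filled points have an adjusted p under 0.05 in edgeR (Sgk1, Errfi1, Bhlhe40, Slc1a3, Jun), the dashed line is the median of all genes (-0.02) and the grey band spans their 5th to 95th percentile.

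The genes whose levels followed each of the 10 most closely were taken from 10326 genes over the 27 strain-by-cluster sums, as Pearson correlations of log2(CPM + 1). Hsd11b1 was most like Ms4a4d (0.95), Cd47 (0.90) and Mmp14 (0.89). Mt1 was most like Zfp36 (0.76), Txn1 (0.75) and Fos (0.71), and Mt2 like Tbcel (0.79). Glul was most like Mir8114 (0.96) and Teddm2 (0.94), the genes that overlap its own exons, and then Mmp19 (0.86). Nr3c1 was most like Pea15a (0.91), Tsc22d3 like Tceal8 (0.87), Fkbp5 like Nf1 (0.86), Per1 like Dleu2 (0.84), Zbtb16 like Crtc1 (0.80) and Nr3c2 like the heart muscle gene Tnnt2 (0.77). The sums share strains and plates, and no test was made.

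Across the 27 sums, Hsd11b1 correlated with Tsc22d3 at 0.61, with Nr3c1 at 0.58 and with Fkbp5 at 0.51, and Mt1 with Mt2 at 0.63. Within clusters, from cell to cell, the relation of Hsd11b1 to the targets was weak: its correlation with Tsc22d3 lay between 0.00 and 0.26 in the 8 clusters and that with Fkbp5 between -0.15 and 0.26. Mt1 and Mt2 correlated in every cluster, from 0.26 in cluster 8 to 0.52 in cluster 6. These are descriptions over cells of shared plates and unequal depth, without a test.

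The larger plates of C57BL6 allowed a look at 1 strain on separate plates. In clusters 2 to 5, Hsd11b1 was at 592 and 650 CPM and Nr3c1 at 172.6 and 263.9 CPM. Glul was at 171.6 and 388 CPM, Zbtb16 at 6.12 and 51.5 CPM, Fkbp5 at 29.8 and 14.6 CPM, Tsc22d3 at 265.9 and 388 CPM, Mt1 at 509 and 362 CPM and Per1 at 52.6 and 38.1 CPM. By cluster, Hsd11b1 was at 1158 and 1109 CPM in cluster 2, 677 and 841 CPM in cluster 5 and 179.9 and 226.4 CPM in cluster 4. In cluster 3 it was at 336.6 CPM on 1 plate and 120.8 CPM on the other, a gap wider than the SD over strains given for that cluster.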

How the data were processed

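Single heart cells were sequenced with Smart-seq2, and the authors deposited unnormalized counts of reads for every gene in each cell. They trimmed reads, mapped them to GRCm38 with TopHat2 and counted them per gene with featureCounts. Poor cells, cells without Pdgfra or Pdgfrb, and cells clearly contaminated with signatures such as endothelial or immune ones were removed. The rest were clustered with pagoda2 on the same values. The annotation release, the strand setting and the treatment of reads that fit several genes are not given in the sources used here. The authors treated cells with many genes as doublets and removed them before deposit, and no doublet caller was run here.

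The 92 spike-ins (1.82% of counts) were left out. Of 46517 genes, 46005 matched GENCODE M21 (GRCm38), which gave coordinates. For each comparison the cells of 1 strain were pooled on either side by adding their counts, where both sides had 3 or more cells. PdgfrbGFP, Cspg4dsRED and Acta2GFP filled 1 plate each and C57BL6 came from 3, so strain, sort and plate cannot be told apart, and p-values measure the spread between these sums. The 8 comparisons were tested in edgeR 4.0.16 under R 4.3.3 (quasi-likelihood, TMM, filterByExpr with 10 as minimum count). Benjamini-Hochberg adjustment covered every gene tested, at a threshold of 0.05. The SE was derived from the fold change and the F statistic. The steps were tested on simulated data. Levels are CPM of summed counts, and TPM used exon lengths of GENCODE M21. Shares of cells were also taken after thinning to 50000 counts, which left out 2 cells.

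The genes and lists were chosen with earlier results of these data known. Named were the 10 genes in every comparison and, of each list, at most 4 per direction with an adjusted p under 0.05 between fibroblasts and mural cells or in cluster 1. Other list genes, and the receptor and target genes given without a call, were named after their values were seen. Correlated genes were the 3 with the highest r for each gene. Alternatives were DESeq2 1.42.0, its size factors in edgeR, limma-voom 3.58.1, no filter, strain as replicate block, plates as the unit, limma on log2 of mean per-cell CPM + 1, and leaving out each strain. Sums of 1 strain come from the same plates, which pairs the sides. Their deviations from the means of the sides correlated at 0.19 in Acta2GFP, 0.05 in C57BL6, 0.02 in Cspg4dsRED and 0.16 in PdgfrbGFP (fibroblasts and mural cells), and at 0.15, 0.07, 0.06 and 0.13 for cluster 1 and clusters 2 to 5. Promoter windows came from RefSeq. No window was listed for Zbtb16, and that of Nr3c1 is not shown here.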

Additional observations from a re-analysis of the deposited data

Results flagged for a closer look

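Groups of 4 strains were checked for a strain far from the other 3, in 60 groups. Such a gap would arise by chance in about 1 in 20 groups of independent, normally spread values, and 5 were found. The groups share strains and single cells set some of the values, so that rate need not hold here. Nr3c1 in cluster 2 was 378 CPM in Cspg4dsRED (8 cells) and 193.1 to 215.8 CPM in the other strains. Fkbp5 in cluster 4 was 0.154 CPM in PdgfrbGFP and 28.5 to 33.7 CPM in the others. Zbtb16 in cluster 8 was 3.15 CPM in Cspg4dsRED and 0.136 to 0.485 CPM elsewhere. Glul in cluster 4 was 120 CPM in Cspg4dsRED and 182.95 to 185.3 CPM in the others. Glul in cluster 8 was 149.1 CPM in Acta2GFP, where 1 of 15 cells held 64.8% of the reads, and 13.8 to 31.98 CPM in the others.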

How the results depend on the processing

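Of 428 values of 39 log2 fold changes under other settings, 365 kept their direction and side of the threshold, 39 no longer passed, 17 newly passed and 7 changed sign. The changed signs were those of Per1 in fibroblasts over mural cells (-0.37 to 0.32 without 1 strain, -0.15 with limma-voom, -0.17 with mean per-cell CPM, -0.033 with the replicate block, -0.35 without clusters 1 and 6) and of Zbtb16 in cluster 1 (-0.41 to 0.71 without 1 strain, -0.11 with plates as the unit). Between fibroblasts and mural cells, the 2 genes called of the 10 became 1 with DESeq2 size factors, beside 6.00% of all genes under that setting. They became 1 without the filter (2.58%), 1 with the replicate block (4.81%) and 0 to 1 without 1 strain (2.66 to 3.91%). They became 3 with DESeq2 (12.7%), with mean per-cell CPM (8.58%) and without clusters 1 and 6 (7.27%). In cluster 1, 1 became 2 with DESeq2 (5.22% of all genes) and 2 with the replicate block (0.742%). It became 0 with limma-voom (2.93%) and 0 to 1 without 1 strain (0.201 to 0.748%). In the comparisons with 0 called, DESeq2 called 1 for cluster 6 (2.81% of all genes) and 1 for cluster 8 (3.20%). It called 1 for cluster 4 (1.30%) and 3 for cluster 5 (0.765%). Without the filter 1 was called for each of clusters 8 (0.855% of all genes), 4 (0.0184%) and 5 (0.119%). For cluster 4, limma-voom (0.248%), mean per-cell CPM (0.0976%) and plates as the unit (0.159%) each called 1. The causes were not tested. Blocking by strain changed no other call among the 10.

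Counts of all genes called between fibroblasts and mural cells ran from 727 to 1926 under other settings and from 409 to 605 without 1 strain, against 896. In cluster 1, where 1.33% were called, they ran from 98 to 689 and from 26 to 110. The highest counts were 341 for cluster 6, 380 for cluster 8 and 387 for cluster 3. With plates as the unit, 24.1% of the calls in cluster 1 were higher, against 42.05% with strains. DESeq2 size factors moved the median log2 change of all genes from -0.32 to -0.17 in cluster 6, from 0.18 to 0.04 in cluster 8 and from -0.13 to 0.04 in cluster 3. With the replicate block and with limma-voom it was -1.08 and -1.08 in cluster 6 and -0.84 and -0.95 in cluster 3. In cluster 8 it was 0.34 and 0.24 with these settings. Mean levels moved by more than the spread between strains in 46 of 80 cases when the median cell was used, and shares of cells with a count fell with thinning in most, moving in 70 of 80. With thinning, the share of cells with a count of Hsd11b1 in cluster 7 went from 37.3% to 14.6%.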

Other observations

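Sums of 1 strain and 1 cluster with fewer than 3 cells were left out of the means by cluster and were not used as a side on their own. Their cells still counted within the pooled sides, such as fibroblasts, mural cells, clusters 2 to 5 and clusters 7 and 8. The 2 Acta2GFP cells of cluster 5 stood at 869 CPM for Hsd11b1, 1148 CPM for Mt1 and 1120 CPM for Per1, of which 1 cell gave 80.4%. The single Cspg4dsRED cell of cluster 3 had 663 CPM of Mt1 and 756 CPM of Tsc22d3, and that of cluster 5 had 539 CPM of Fkbp5 and 10.7 CPM of Hsd11b1. The single C57BL6 cell of cluster 7 had 8.44 CPM of Hsd11b1.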
